A study of Homo sapiens with 6 samples.

Results

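HOX cluster genes encode transcription factors with a DNA-binding homeodomain, and they were described here by cluster and by paralog number, the number that gives a gene's place in its cluster. All genes of the table named HOXA, HOXB, HOXC or HOXD with a number were taken, which gave 19 of 32862 genes. RefSeq lists 39 such genes, and the other 20 were not analysed here. The table held 2 of 11 HOXA genes, 2 of 10 HOXB genes, 7 of 9 HOXC genes and 8 of 9 HOXD genes. The libraries came from SH-SY5Y cells, a human neuroblastoma line of the sympathetic nerve lineage. There were 3 libraries of cells in which OTULIN had been knocked out with CRISPR-Cas9 (KO) and 3 libraries of wild-type cells (WT), all untreated. The sample titles and library names give no batch. OTULIN is an enzyme that takes apart ubiquitin chains of the linear type. Whether the KO cells were 1 clone or a pool is not given in the sources used here, nor whether the replicates were separate cultures, so the p-values cover only how these libraries differ from each other, a spread that may be technical.

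In mammals the HOX genes lie in 4 clusters, and genes with low paralog numbers sit at the 3′ end of each cluster. In the embryo, 3′ genes are switched on earlier and nearer the head, and 5′ genes later and nearer the tail. Polycomb proteins hold the clusters silent, trithorax proteins and retinoic acid help to open them, and PBX, MEIS and PKNOX proteins bind DNA together with HOX proteins. Nerve cells of the trunk keep the HOX code of the level they came from, and HOXC9 is known in neuroblastoma lines for its part in differentiation by retinoic acid.

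The KO libraries were far shallower than the WT libraries, which bears on every result. They held 809603, 862932 and 725827 counts, against 62210442, 64352333 and 61772795 counts in WT. A count was found for 2306 to 2567 genes in KO libraries and for 27453 to 27958 genes in WT libraries. The loci of 18S ribosomal RNA took 19.5% to 36.5% of the counts in KO libraries and 0.438% to 0.823% in WT libraries. OTULIN had 0 counts in all 3 KO libraries, and 1682, 2101 and 2155 counts in WT. Of the 10820 genes tested, 71.3% had 0 counts in all 3 KO libraries. Some of these were high in WT, such as RBBP4 with 23444, 23924 and 23398 counts and ATP5MC2 with 9699, 9518 and 8882. For any gene named below, whether 0 counts in KO lie in the cells or in the KO libraries was not tested. Markers of noradrenergic neuroblastoma cells summed to 0.0674% to 0.0745% of the counts in KO libraries and 0.747% to 0.827% in WT libraries. Of these 12 markers, 8 had no count in KO, DBH and CHGA among them. The 8 fibroblast markers summed to 0.00464% to 0.0134% in KO and 0.0299% to 0.0312% in WT, the 8 epithelial markers to 0.00124% to 0.00344% in KO and 0.000911% to 0.00277% in WT, and the 6 blood cell markers in the table to at most 0.00104% in KO and 0.000301% in WT. The part of depth, ribosomal RNA and marker levels in the HOX results was not tested, and fewer cells that express a gene and less RNA per cell cannot be told apart in bulk RNA.

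The homeobox is the part in which the HOX genes are most alike. Over all pairs of the 10 tested HOX genes, the longest exact stretch shared by their longest coding transcripts was 30 bases. Other transcripts were not compared. Over all annotated exons HOXC4 and HOXC6 share 484 bases, so the 30 bases do not limit how many reads genes can share.

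Promoter sequences in RefSeq (GRCh38.p14) matched 11 of the 19 genes and 5 of the 10 tested. They are shown for a pair of HOXD genes with no count in KO. The HOXD3 window is chr2:176157057-176157306 and the HOXD8 window is chr2:176129455-176129693, both on the + strand. The HOXD3 window ends at the base before the RefSeq start. That start lies inside the counted HOXD3 gene, chr2:176136612-176173085, so the window is not at the 5′ end of the counted gene. The HOXD8 window was cut to 239 bases, where exon bases of GENCODE v29 begin, and so ends short of the RefSeq start.
HOXD3: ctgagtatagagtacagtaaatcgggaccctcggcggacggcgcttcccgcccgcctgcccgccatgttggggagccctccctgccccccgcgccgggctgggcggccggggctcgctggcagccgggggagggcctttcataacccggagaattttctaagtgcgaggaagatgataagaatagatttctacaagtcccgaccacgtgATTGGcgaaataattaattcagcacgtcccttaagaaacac
HOXD8: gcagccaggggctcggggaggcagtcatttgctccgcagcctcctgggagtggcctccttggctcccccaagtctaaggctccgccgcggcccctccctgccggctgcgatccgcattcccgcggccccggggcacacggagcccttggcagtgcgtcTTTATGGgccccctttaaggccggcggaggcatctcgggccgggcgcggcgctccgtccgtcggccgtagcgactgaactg
The capitals mark a CCAAT box read on the other strand in HOXD3, and a match to TTTATNG in HOXD8. CCAAT on either strand was in 32.0% of 35116 promoter windows of the HOXD3 length, and TTTATNG was in 8.75% of windows of the HOXD8 length. TATAAA was in neither window, and it was in 10.7% and 10.5% of windows of these lengths. GC content was 59.2% in HOXD3 and 72.0% in HOXD8, against medians of 58.0% and 58.2%, and the CpG counts were 21 and 25, against medians of 11 and 10. These matches describe the windows only.

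HOX transcripts held a larger share of the counts in KO libraries, and all of it came from the HOXC cluster. HOX genes took 0.0852%, 0.0809% and 0.101% of the counts in KO, against 0.00805%, 0.0081% and 0.00731% in WT. KO libraries averaged 0.0890% ± 0.0106, and WT libraries 0.00782% ± 0.00044 (n = 3 each, ± SD; exact two-sided permutation test, p = 0.1, the smallest p this design allows). HOXC genes gave 100% of HOX counts in each KO library, against 45.9%, 44.6% and 43.8% in WT. HOXD genes gave 0% in each KO library, against 54.0%, 55.4% and 56.0% in WT. The exact p was 0.1 for HOXC and for HOXD, or 0.2 after adjustment over the 4 cluster shares. HOXA and HOXB genes had no count in KO and at most 0.155% of the HOX counts in a WT library (exact p = 0.4 and 1). The number of HOX genes with a count was 6 in each KO library and 14, 13 and 17 in WT (exact p = 0.1), and this number depends on depth.

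In KO cells 6 HOXC genes rose and 4 HOXD genes fell, and these were all the HOX genes that could be tested. The test was edgeR's quasi-likelihood test on all genes whose FPKM averaged 1 or more in the 6 libraries, called at a Benjamini-Hochberg adjusted p under 0.05. Of all 10820 genes tested, 95.6% were called, 7.63% higher and 88% lower in KO, so a call by itself sets no gene apart. KO and WT levels did not overlap for any of the 10 HOX genes, nor for 96.2% of all genes tested. In the 6 HOXC genes all KO libraries lay above all WT libraries, as in 8.15% of all genes tested. HOXC8 and HOXC10 passed the filter only through their KO level, and HOXD3, HOXD4, HOXD8 and HOXD9 only through their WT level, so these 6 had to differ and their number supports nothing. HOXC4, HOXC5, HOXC6 and HOXC9 passed in both groups. Of 1496 genes with 30 or more counts in the summed KO libraries, 51.3% were called higher in KO.

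**Figure D1:**
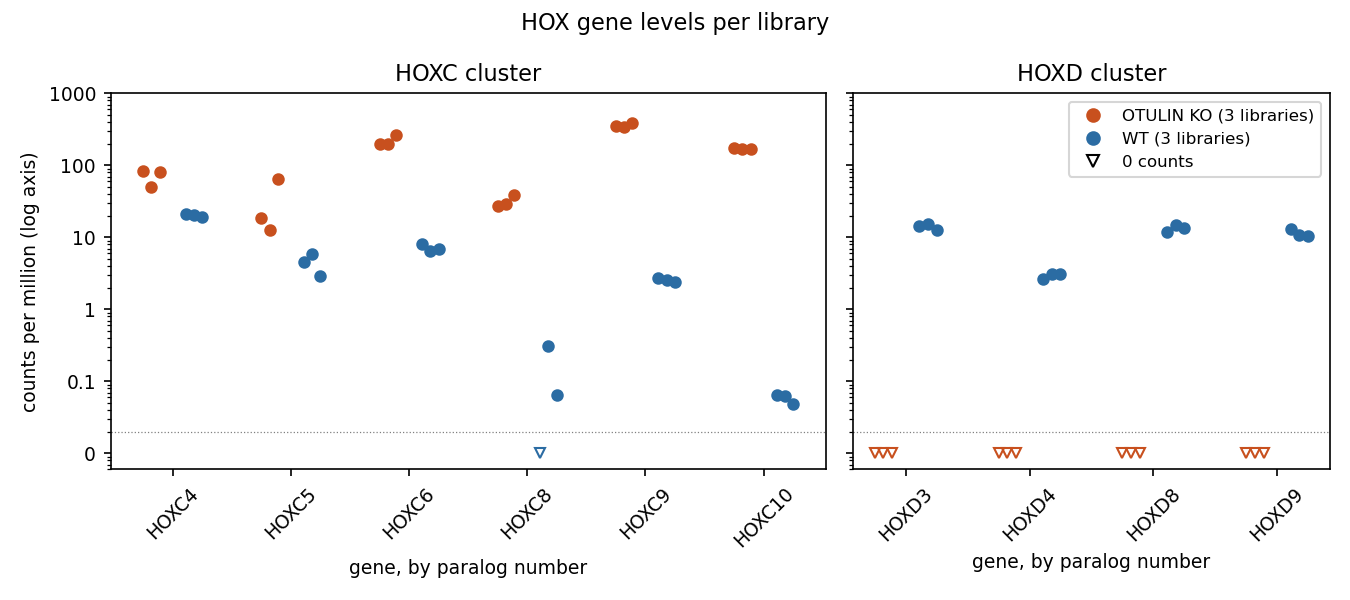
Level of each tested HOX gene in every library, in CPM on a log axis, KO libraries left of WT libraries, with 0 drawn as open triangles under the dotted line. All KO points lie above the WT points in the 6 HOXC genes, and the 4 HOXD genes have 0 counts in all 3 KO libraries.

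The HOXC cluster lies on the + strand of chromosome 12 (hg38), with HOXC4 at its 3′ end. HOXC4 (ENSG00000198353, chr12:54016931-54055327), a gene of the neck and upper trunk region in the mouse embryo, had 68, 44 and 59 counts in KO and 1332, 1342 and 1202 counts in WT. The raw counts were lower in KO, but as a share of the library the gene was higher, at 72.1 ± 18.3 CPM in KO, against 20.6 ± 1.0 CPM in WT (n = 3 each, ± SD; CPM are counts scaled to the library total). It rose 3.50-fold in CPM, with a log2 change of 1.40 (SE 0.14, adjusted p = 7.36e-05). This was the smallest rise of the HOXC genes. Here and below, folds are scaled to library totals, while the log2 change, SE and adjusted p use edgeR's scaling factors. The fold and the log2 change therefore differ in size.

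HOXC5 (ENSG00000172789, chr12:54033050-54035361), its neighbour with a like place in the body axis, had 15, 11 and 47 counts in KO and 285, 376 and 183 counts in WT. The third KO library stood above the other two, so the spread was wide, with 32.0 ± 28.5 CPM in KO and 4.46 ± 1.44 CPM in WT. The gene rose 7.17-fold, with a log2 change of 2.40 (SE 0.59, adjusted p = 0.00636), and the fold was 3.50 without KO replicate 3.

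HOXC6 (ENSG00000197757, chr12:53990624-54030823), which marks the forelimb level of the spinal cord in mouse and chick, had 161, 171 and 191 counts in KO and 506, 415 and 432 counts in WT. KO libraries averaged 220.1 ± 37.3 CPM and WT libraries 7.19 ± 0.86 CPM. It rose 30.6-fold (log2 change 4.53, SE 0.15, adjusted p = 3.59e-06). At the WT share, 17.2 counts were expected over the KO libraries, and 523 were found.

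HOXC8 (ENSG00000037965, chr12:54008985-54012769), a gene of the thoracic region, had 22, 25 and 28 counts in KO and 0, 20 and 4 counts in WT. The KO libraries were alike, while nearly all WT counts came from WT replicate 2. The mean was 31.6 ± 6.1 CPM in KO and 0.125 ± 0.164 CPM in WT. The gene rose 252-fold (log2 change 7.53, SE 1.01, adjusted p = 0.000304), and the fold was 168 without WT replicate 1 and 975 without WT replicate 2. The ratio of the pooled counts had a 95% exact interval of 153 to 406, which covers counting error only. HOXC8 passed the filter only through its KO level, so its adjusted p supports nothing.

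HOXC9 (ENSG00000180806, chr12:53994895-54003298), which sets thoracic motor neuron identity in the mouse, had more counts in the shallow KO libraries than in the deep WT libraries. It had 284, 300 and 285 counts in KO, and 173, 166 and 148 counts in WT. Its level was 363.7 ± 25.1 CPM in KO and 2.59 ± 0.19 CPM in WT, a 141-fold rise (log2 change 6.74, SE 0.13, adjusted p = 8.98e-07). By count it ranked 323, 316 and 328 among the genes of the KO libraries, and 12895, 13064 and 13304 in WT. Of 1602 genes with WT counts within 1.5-fold of its own, 93.1% had 0 counts in all KO libraries, and 0.125% had a KO level at least as high.

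HOXC10 (ENSG00000180818, chr12:53985065-53990279), a gene of the lumbar region and hindlimb, had 140, 147 and 123 counts in KO and 4, 4 and 3 counts in WT. It was near the detection limit in WT and stood at 170.9 ± 1.8 CPM in KO, against 0.0583 ± 0.0085 CPM in WT. It rose 2930-fold (log2 change 11.03, SE 0.12, adjusted p = 2.25e-07). The 95% exact interval of the pooled ratio was 1619 to 5910, since it rests on 11 counts in WT, and 0.14 counts were expected over the KO libraries at the WT share. Of 3182 genes with like WT counts, 0.157% had a KO level at least as high. HOXC10 passed the filter only through its KO level, so this share and the adjusted p support nothing. HOXC13, at the 5′ end of the cluster, had 0 counts in KO and 0, 0 and 4 counts in WT.

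Among the 4 HOXC genes that passed the filter in both groups, the log2 change was larger toward the 5′ end, at 1.40 for HOXC4, 2.40 for HOXC5, 4.53 for HOXC6 and 6.74 for HOXC9. With HOXC8 and HOXC10, which passed only through KO and so had to rise, the log2 changes of HOXC4, HOXC5, HOXC6, HOXC8, HOXC9 and HOXC10 were 1.40, 2.40, 4.53, 7.53, 6.74 and 11.03, in order of paralog number. HOXC13, further 5′, had no count in KO and was not tested. The genes share libraries, neighbouring DNA and some exons and are not independent, so their order is given as a description. Of the 6 tested, HOXC4 had the lowest change under all 16 ways of scaling, testing or leaving out a library. HOXC10 had the highest in all of these but limma on log2(FPKM + 1), where HOXC9 was highest at 6.34 and HOXC10 was at 6.0. The size depended on the scaling. The median change of the same 1496 genes was 0.57 under trimmed mean (TMM) scaling, 0.01 under median-ratio scaling and 0.96 under library totals, and HOXC4 changed by 1.40, 0.84 and 1.80. No HOXC change turned its sign.

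**Figure D2:**
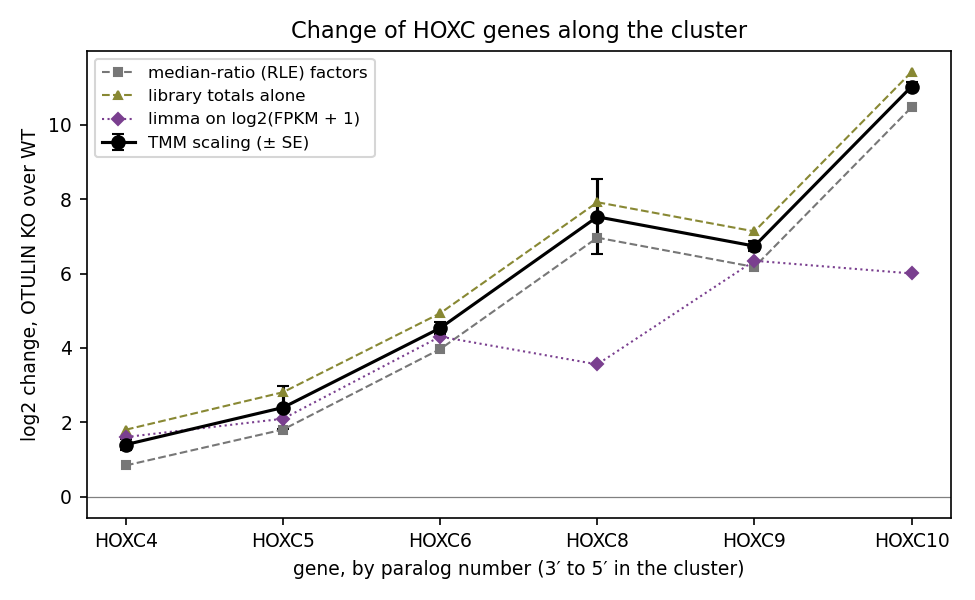
Log2 change of 6 HOXC genes, KO over WT, against their order in the cluster, under TMM scaling with SE bars and under 3 other settings. The change climbs from 1.40 at HOXC4 to 11.03 at HOXC10 under TMM scaling, with HOXC8 above HOXC9. HOXC8 and HOXC10 passed the filter only through KO, HOXC13 is not drawn, and on log2(FPKM + 1) HOXC8 stands at 3.56.

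The make-up of HOXC counts within a library does not depend on library scaling, and it moved toward the 5′ genes as well. This comparison was chosen after the values were seen. HOXC4 gave 9.86%, 6.30% and 8.05% of HOXC counts in KO, against 57.9%, 57.8% and 60.8% in WT. HOXC9 gave 41.2%, 43.0% and 38.9% in KO, against 7.52%, 7.15% and 7.49% in WT. HOXC10 gave 20.3%, 21.1% and 16.8% in KO, against 0.174%, 0.172% and 0.152% in WT. HOXC4 was the leading HOXC gene in WT and HOXC9 in KO. HOXC6 moved less, with 24.6% ± 1.4 in KO and 20.6% ± 2.3 in WT.

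Set against HOXC4 in the same library, HOXC9 stood at 4.18, 6.82 and 4.83 counts per HOXC4 count in KO, and 0.130, 0.124 and 0.123 in WT. The mean ratios were 5.28 ± 1.38 in KO, against 0.126 ± 0.004 in WT (n = 3 each, ± SD; exact two-sided permutation test, p = 0.1, or 0.125 adjusted over 5 ratios). The ratios of HOXC6, HOXC8 and HOXC10 to HOXC4 averaged 3.16, 0.455 and 2.49 in KO, against 0.350, 0.00608 and 0.00283 in WT, with no overlap and the same exact p = 0.1. Only tested genes were taken, and HOXC8 and HOXC10 passed the filter only through KO. Their ratios therefore had to be higher in KO and support nothing, though they count among the 5 adjusted over. The ratio of HOXC5 overlapped between the groups, at 0.422 in KO and 0.215 in WT (exact p = 0.4), and the KO mean was 0.235 without KO replicate 3. Per length, in FPKM, the HOXC9 ratio was 8.78 in KO and 0.207 in WT.

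**Figure D3:**
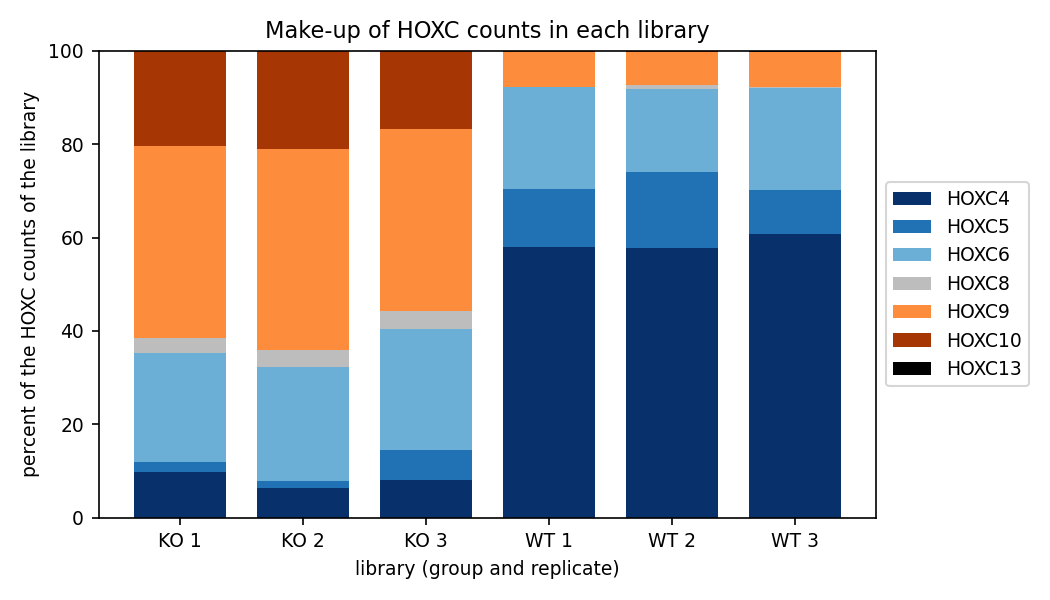
Share of each HOXC gene in the summed HOXC counts of each library, in percent, KO libraries left of WT libraries. HOXC9 and HOXC10 fill 55.7% to 64.0% of the KO bars and 7.32% to 7.84% of the WT bars, where HOXC4 fills 57.8% to 60.8%.

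The HOXC exons overlap, so neighbours can share reads, and whether counting used strand is not given in the sources used here. In GENCODE v29, HOXC4 shares 484 of its 2725 exonic bases with HOXC6, and HOXC6 shares 73 bases with HOXC9. HOXC5 shares 33.9% of its bases with a read-through transcript, ENSG00000273049, which had 1, 0 and 0 counts in KO and 114, 37 and 84 in WT. HOXC9 overlaps an antisense gene, HOXC-AS2, over 163 of 1679 bases, and HOXC8 overlaps no other exon. HOXC10 shares 229 of 2331 bases, 166 with the read-through transcript and 63 with an antisense gene, HOXC-AS3.

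The HOXD cluster, on the + strand of chromosome 2, had no count in any KO library. HOXD3 (ENSG00000128652, chr2:176136612-176173085), which takes part in patterning the neck vertebrae in the mouse, had 905, 997 and 787 counts in WT. HOXD4 (ENSG00000170166, chr2:176151550-176153226), a hindbrain and neck gene that answers to retinoic acid, had 167, 202 and 191 counts in WT. Both lie in the 3′ part of the cluster. Of their exonic bases, 74.1% in HOXD3 and 80.5% in HOXD4 overlap other genes, mostly a read-through transcript, so their counts cannot be fully told apart from it.

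HOXD8 (ENSG00000175879, chr2:176129694-176132695), from the middle of the cluster, had 740, 963 and 849 counts in WT. HOXD9 (ENSG00000128709, chr2:176122719-176124937), a trunk and limb gene, had 813, 688 and 641 counts in WT. Neither overlaps another exon, and neither had a count in KO. Against a floor of 3 counts over the 2398362 counts of the KO group, or 1.25 CPM, HOXD3 was at least 11.4-fold lower in KO, HOXD4 at least 2.38-fold, HOXD8 at least 10.8-fold and HOXD9 at least 9.10-fold. The adjusted p-values were 0.000101, 0.000719, 0.00012 and 0.000213.

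At the WT share, the KO libraries would have held 34.2 counts of HOXD3, 7.13 of HOXD4, 32.5 of HOXD8 and 27.3 of HOXD9. Summed over the cluster, 34.9, 37.2 and 31.3 counts were expected in the 3 KO libraries and none was found. By that floor the cluster was at least 34.4-fold lower in KO than its 43.1 ± 2.0 CPM in WT. Such bounds cover counting error only, and over the genes counted the KO libraries differed from each other by more than that. Yet 0 was the usual KO value for genes of such WT levels. Of the genes with WT counts within 1.5-fold of HOXD3, 87.7% had 0 counts in all KO libraries, and the shares were 92.4% for HOXD4, 88.4% for HOXD8 and 88.6% for HOXD9. The loss of HOXD counts therefore does not set HOXD apart from other genes of like WT level. Of 2857 genes with WT counts like those of HOXC4, 85.5% had 0 counts in KO as well, and HOXC4 was counted in all 3 KO libraries.

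**Figure D4:**
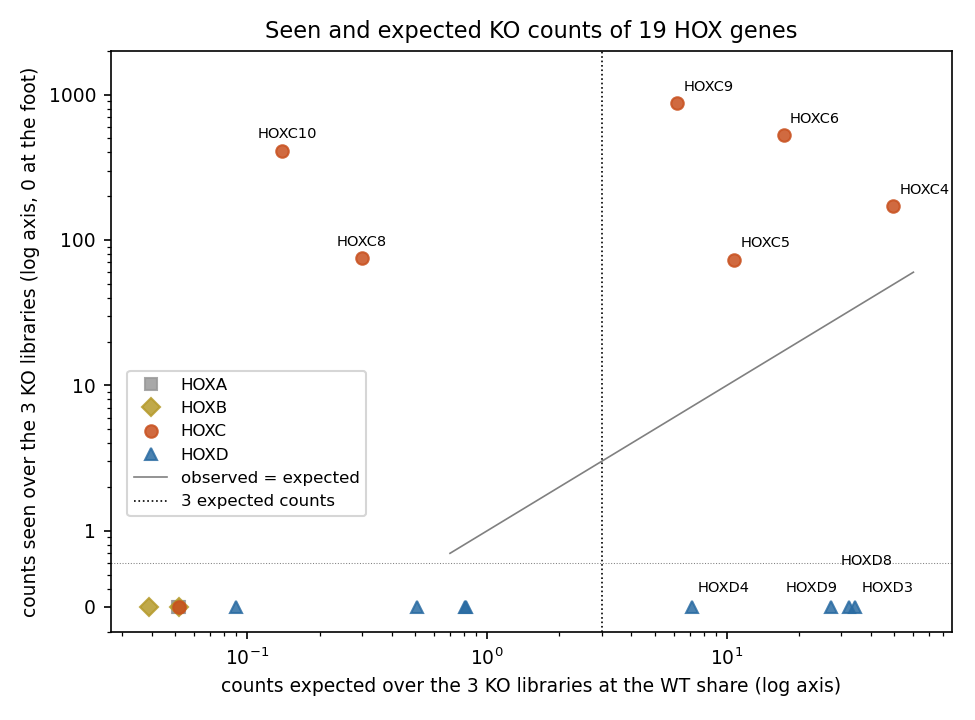
Counts found over the 3 KO libraries against the counts expected at the WT share, both on log axes, for all 19 HOX genes, with 0 at the foot. The 6 HOXC genes lie above the line of equal values, HOXD3, HOXD4, HOXD8 and HOXD9 lie at 0 with 7.13 to 34.2 counts expected, and the other 9 genes lie at 0 left of the dotted line at 3 expected counts.

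The other 9 HOX genes were under the filter and were not tested. HOXD13, HOXD1 and HOXD10 had 64, 63 and 40 counts over the 3 WT libraries, and HOXD11 had 7. HOXA2, HOXA7, HOXB4 and HOXC13 had 4 counts each and HOXB13 had 3, each in 1 WT library. All 9 had 0 counts in KO, where 0.0388 to 0.817 counts were expected at the WT share, so a fall was not detectable at this depth.

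Per length, the order of HOX levels differed between the groups. In KO, HOXC9 was highest at 195.2 ± 15.3 FPKM. HOXC10 at 64.3 ± 0.8 FPKM and HOXC6 at 56.7 ± 9.9 FPKM came next with ranges that overlapped, and HOXC4, HOXC5 and HOXC8 followed at 23.3, 17.6 and 11.4 FPKM, each overlapping the next. In WT, HOXC4 was highest at 6.81 ± 0.34 FPKM, above HOXD9 at 5.58 and HOXD8 at 4.72, which overlapped. HOXD3, HOXC5 and HOXD4 followed at 3.53, 2.54 and 2.39 FPKM, each overlapping the next. HOXC6 at 1.9 FPKM stood below HOXD4 with no overlap, but its range overlapped that of HOXC5. HOXC9 at 1.41 FPKM stood below all of these with no overlap, and HOXC8 and HOXC10 were lowest at 0.0472 and 0.0189 FPKM.

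Among the genes that work with HOX proteins, PBX3 and MEIS1 rose in KO. Of 7 tested cofactors 3 were higher and 4 lower, where 7.63% of all genes tested were higher and 88% lower, with a median log2 change of -0.59, against -4.61 over all genes tested when genes at 0 in KO are set at their bound. PBX3 had 963, 1000 and 1015 counts in KO and 3962, 3847 and 3750 in WT, and rose 20.3-fold in CPM. MEIS1, named after its values were seen, rose 14.5-fold. PBX2, MEIS3 and PKNOX1 had no count in KO and were at least 56.2-fold, 80.5-fold and 36.7-fold lower. MEIS2, also named later, had a log2 change of -0.59 (adjusted p = 0.000871), and under library totals it was not called, at -0.19 (adjusted p = 0.191).

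Of 25 tested polycomb genes 6 were higher and 17 lower, beside 7.63% higher and 88% lower over all genes tested. In KO 13 of them had 0 counts, beside 71.3% of all genes tested, and their median was -4.07, beside -4.61. RBBP4, CBX2, PHC1 and PHF19 are subunits of polycomb complexes or their partners. They had no count in KO and were at least 300.4-fold, 221-fold, 108-fold and 80.3-fold lower. Of 17 trithorax genes and other HOX activators 5 were higher and 10 lower, beside the same 7.63% and 88% over all genes tested, with a median of -3.08. HCFC1, MLLT1, DOT1L and WDR5 had no count in KO and were at least 195-fold, 141-fold, 112-fold and 101-fold lower. KMT2A, the MLL methyltransferase that keeps HOX genes on and named after its values were seen, had 10, 21 and 4 counts in KO and 5425, 6201 and 6118 in WT.

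Of 6 tested genes of the retinoic acid pathway, 5 were lower and 1 was not called, near the 88% lower over all genes tested, and their median of -4.32 was near the -4.61 of all genes. The carrier CRABP2 was at least 47.3-fold lower, and the receptors RXRB, RXRA and RARG were at least 42.6-fold, 25.5-fold and 15.7-fold lower. The receptor RARA had 81, 53 and 95 counts in KO and 3592, 3131 and 2896 in WT (log2 change 0.51, adjusted p = 0.052). It was called higher under library totals (log2 change 0.91, adjusted p = 0.0088) and without KO replicate 2 (0.72, adjusted p = 0.00724), and in both limma fits. Under median-ratio scaling RARA was not called, at -0.06 (adjusted p = 0.8), and DESeq2 called 0 of the 6 genes higher.

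All 13 tested genes that flank the clusters were lower in KO and 7 of them had 0 counts, with a median of -5.01. These values lie near those of all genes tested, of which 88% were lower and 71.3% had 0 counts in KO, with a median of -4.61. On the HOXC side, ATP5MC2, CALCOCO1 and SMUG1 were at least 119-fold, 36.5-fold and 34.2-fold lower, and on the HOXD side MTX2 was at least 51.8-fold lower. HNRNPA1, a splicing factor beside HOXC named after its values were seen, had 1176, 1145 and 1154 counts in KO and 142080, 141393 and 133467 in WT, with a log2 change of -1.0. Both tested non-coding RNAs of the clusters lie in HOXD and had no count in KO. HAGLR had 777, 617 and 752 counts in WT and was at least 9.13-fold lower, and HOXD-AS2 had 340, 305 and 293 counts in WT and was at least 3.98-fold lower.

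**Figure D5:**
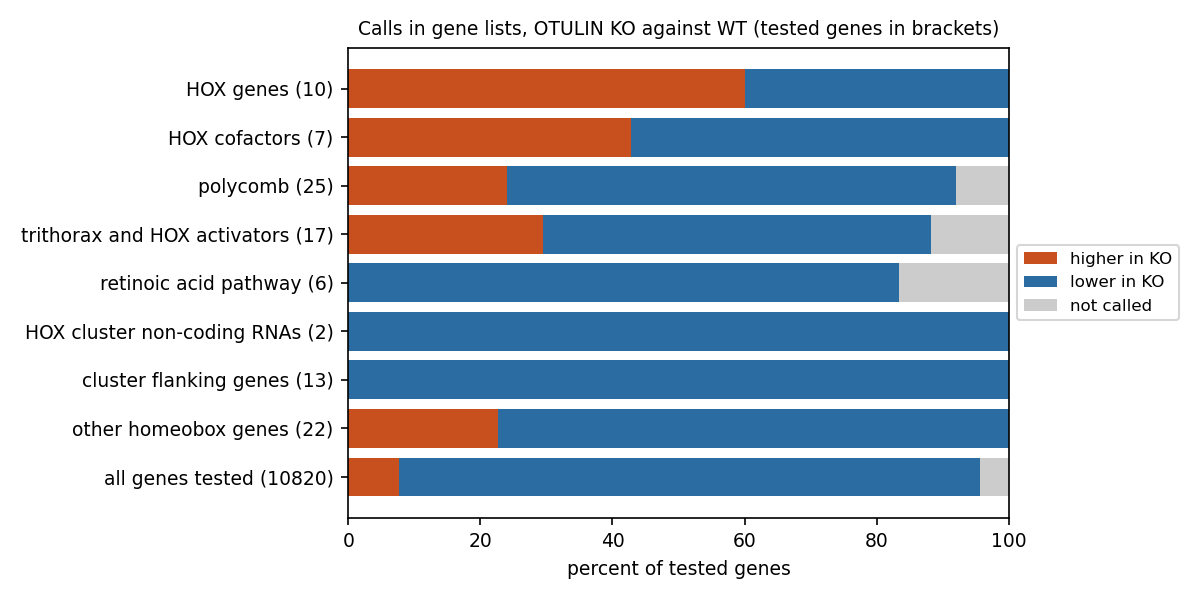
Percent of tested genes called higher, called lower or not called in KO against WT, for HOX genes, 7 lists and all genes tested, with the number tested in brackets. No bar for the 13 cluster flanking genes or the 6 retinoic acid genes has a higher part, and 826 of all 10820 genes were higher.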

How the data were processed

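RNA of SH-SY5Y cells was selected with oligo(dT) beads and sequenced, 3 libraries per genotype. The authors deposited a table with counts per gene and library, not normalized, and FPKM values, which are counts scaled to gene length and library by the authors, per the file headers. Per the submitters' processing notes, the tools were StringTie 1.3.4d, HISAT2 2.0.4, cutadapt 1.9 and DESeq2, on hg38, listed without their roles. The sources used here do not give the annotation release or the strandedness of counting.

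Counts were tested with edgeR 4.0.16 (R 4.3.3; glmQLFit and glmQLFTest, TMM factors, genotype as the only term) over the 10820 genes whose FPKM averaged 1 or more. p-values were Benjamini-Hochberg adjusted over these genes. SE is the size of the log2 change divided by the root of F. CPM are counts scaled to the library total, and folds are ratios of mean CPM. One library's floor of 3 counts was 3.48 to 4.13 CPM in KO and 0.0466 to 0.0486 CPM in WT. Floors and intervals cover counting error only, as no molecular identifiers are given. Library shares and ratios were compared with exact permutation tests. On simulated counts the fit was checked for recovery of known changes. Most simulated KO genes kept their WT share, unlike in the real KO libraries, so this does not check the calls made here. Alternatives were other filters, scalings and tools (DESeq2 1.42.0, limma 3.58.1), a replicate block and leaving out each library.

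The genes and lists were chosen with earlier results of these data known. All tested HOX genes were named, and from each other list up to 4 called genes with the largest absolute log2 change and no overlap, or every tested non-coding RNA. Some genes that these rules select, and some sequences, are not reported here. Exon overlap, homeoboxes and coordinates are from GENCODE v29 and promoters from RefSeq.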

Additional observations from a re-analysis of the deposited data

How the results depend on the processing

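Under the other filters, scalings, tools and left-out libraries, the log2 changes of the 10 tested HOX genes kept their direction, and 137 of 144 values kept their side of the threshold. The other 7 were lost with the replicate number as a block. The sample titles give replicate numbers but do not say whether these pair the samples. Same-numbered KO and WT libraries had deviation correlations of -0.00133, -0.0111 and 0.0305 over 1496 genes. Those of differently numbered libraries ran from -0.0386 to 0.0425. At the depth of the KO libraries, such values cannot decide whether the samples are paired. With that block 3 HOX genes were called, 3 higher (HOXC6, HOXC9 and HOXC10) and 0 lower, the 4 HOXD genes having adjusted p-values of 0.104 to 0.137, and 741 of all genes were called, against 10345 without it. With a mean of at least 5 FPKM, 6 HOX genes were called and 0 lower, since no HOXD gene passes that filter, and 4504 of all genes were called. HOXD4 was not tested without WT replicate 2 or 3, where its mean FPKM fell under the filter.

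The difference in HOX share of counts was 0.117 percentage points with the 18S ribosomal loci left out, against 0.0812 with them. From FPKM sums, the differences in HOXC and HOXD share were 56.7 and -56.6 points, against 55.2 and -55.1 from counts. With at least 10 counts required, the number of HOX genes differed by -5, with 6 in KO, against -8.67. Of 165 counts of called genes in the other lists, 144 were within 1.5 times the main count. KO depth limits all of this: a gene with under 3 expected KO counts could not be seen to fall.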

Other observations

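Outside the HOX clusters, 5 of 22 tested homeobox genes were higher in KO and 17 lower, against 7.63% higher and 88% lower over all genes, and their median log2 change was -2.73 with genes at 0 in KO set at their bound. POU4F1, a factor of sensory neurons, had 113, 87 and 71 counts in KO and 23, 11 and 6 in WT. It had more counts in the shallow KO libraries than in WT, as HOXC8, HOXC9, HOXC10 and DLX1 did. DLX1, TLX3 and ZFHX3 were also called higher, but ZFHX3 turned to a log2 change of -0.13 under median-ratio scaling. These 4 were named after their values were seen.

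PHOX2A, TLX2, CUX2 and DLX6 had no count in KO and were at least 355-fold, 205-fold, 82.5-fold and 11.1-fold lower. PHOX2A is a regulator of noradrenergic identity, and it had 31079, 27587 and 24975 counts in WT.

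Other cell type markers moved as follows. Of 6 tested fibroblast markers COL1A1 rose 5.10-fold, or 3.46-fold without KO replicate 3, and 4 fell. Of 2 tested epithelial markers, KRT18 and KRT19, none passed edgeR's threshold and DESeq2 called 1, and no blood cell marker passed the filter.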
